A study of Bos taurus with 20 samples.

Results

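The question put to the data was whether vitrification went with the same change of gene expression in whole cattle embryos and in isolated trophectoderm (TE), the outer layer of the blastocyst that becomes the fetal part of the placenta. All 20 samples of the deposited bovine RNA-seq table entered the comparison, and the members are the 10599 of its 15542 genes that had at least 10 reads in at least 2 samples. For each gene a vitrification effect was taken in each kind of sample as the vitrified mean minus the fresh mean of log2(scaled RPKM + 1), and the TE effect was then subtracted from the whole-embryo effect. A positive difference therefore means that the vitrified-minus-fresh value was higher in whole embryos than in TE. RPKM is the number of reads on a gene relative to its length and to the size of the library, and the scaling sets the samples to a common level by the median ratio of their genes.

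The 4 groups were 6 fresh (not vitrified) whole embryos, 5 fresh TE samples, 2 vitrified whole embryos and 7 vitrified TE samples. All were *Bos taurus* conceptuses judged viable and recovered at day 14 by flushing the uterus. The labels give no sire, dam, sex, embryo of origin or processing batch, and they do not say whether any embryo and TE sample came from the same conceptus. The p-values therefore measure only the spread between these samples, which may in part be technical, and the vitrified embryo group rests on 2 samples.

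Vitrification is cooling so fast, in concentrated cryoprotectant, that water sets as a glass without ice. At about this age the ruminant conceptus leaves the spherical stage and begins to elongate, and its TE secretes interferon tau, the signal by which the mother recognises the pregnancy, along with pregnancy-associated glycoproteins. A whole embryo holds in addition the epiblast, which forms the fetus, and the hypoblast, which lines the TE and forms the yolk sac and is a source of apolipoproteins.

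Several properties of the samples move with the groups and bear on every value below. The fresh TE samples stood apart: 33.8% to 40.3% of their reads fell in listed genes, against 57.5% to 63.9% in the other 15 samples, and their mitochondrial messenger RNA share was 1.09% to 1.41% against 6.29% to 9.87% in vitrified TE. Fresh embryos had a mitochondrial share of 3.28% to 5.12% and the 2 vitrified embryos 3.01% and 5.03%. Of the 10 pairs of fresh TE samples, 2 (samples 1 with 2 and 3 with 4) were far closer to each other than the other 8, with a chi-square per degree of freedom of 1.88 and 1.48 against 11.9 to 22.6, and averaging them is given in the closing section. DDX3Y, a Y-linked gene, had at least 10 reads in 5 of 6 fresh embryos, 2 of 2 vitrified embryos, 5 of 7 vitrified TE samples and 0 of 5 fresh TE samples. Whether any of these properties has a part in the results was not tested, and in bulk samples fewer cells of a type and less RNA per cell cannot be told apart.

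The labels were checked against markers. The summed level of 7 trophoblast genes was 3687 to 4469 scaled RPKM in fresh TE and 1196 to 2396 in all other samples, but the keratin KRT18 alone made up 3370 to 4120 of it in fresh TE. TFAP2A and TFAP2C were also highest in fresh TE, whereas KRT8 (259.6 to 304.7 against 534 to 787) and ASCL2 were lower in fresh TE than in the vitrified samples. The endometrial marker OXTR, the only one found, had at most 3 reads. The summed epiblast markers POU5F1, NANOG and SOX2 read 1.34 to 7.27 in fresh embryos, 0 to 0.316 in fresh TE and 0.412 to 1.42 in vitrified TE. The 2 vitrified embryos differed from each other: the first held 12 POU5F1 reads, 0 NANOG reads (a count of 0 allows up to 3) and 1 SOX2 read, and the second held 830, 195 and 39. In scaled level the first sample labelled vitrified embryo lay within the range of the vitrified TE samples for NANOG and SOX2 and just below it for POU5F1. The sum of 8 hypoblast markers was 11.5 to 20.9 across all samples, most of it FST. Of the other hypoblast markers GATA4, GATA6, SOX17, PDGFRA, LRP2 and AMN were higher in every vitrified than in every fresh TE sample, for example LRP2 at 1.30 to 2.15 against 0.436 to 0.826, and CUBN was at or near 0. Of 4 blood and immune markers AIF1 was high in fresh TE (15.15 to 26.2 against at most 1.47 elsewhere), while HBA (at most 0.411 against 0.717 to 1.83) was lower there and CD74 was at 0. The main counts of calls and the effects of the named genes were recomputed without each vitrified embryo. The correlation of the 2 effects, the gaps between the kinds and the overlap of samples were not.

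The vitrification effect differed between the 2 kinds of sample in 2875 genes (27.1% of those tested; limma with Benjamini-Hochberg adjustment over all tested genes, threshold 0.05), 1481 with a higher effect in whole embryos (14%) and 1394 with a lower one (13.2%). The effect within TE passed the threshold in 6641 genes (62.7%; 3732 rose, 35.2%, and 2909 fell, 27.4%) and the effect within whole embryos in 1863 (17.6%; 1122 rose, 10.6%, and 741 fell, 6.99%). Most of the genes whose effects differed had moved in TE: 2186 of the 2875 passed the TE test and not the embryo test, 171 passed the embryo test and not the TE test, 73 passed neither, and 445 passed both. The TE effect was the larger in absolute size in 86.7% of the 2875 and in 68.9% of all tested genes. With 5 and 7 samples the TE effect was also the more precise, with a median standard error of 0.06 against 0.09 for the embryo effect. Across the tested genes the 2 effects correlated at Pearson's r = 0.56 (Spearman's rho = 0.48), which describes genes within one data set and not independent replicates. Without the first vitrified embryo 1995 genes passed for the difference, and without the second 1863.

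**Figure D1:**
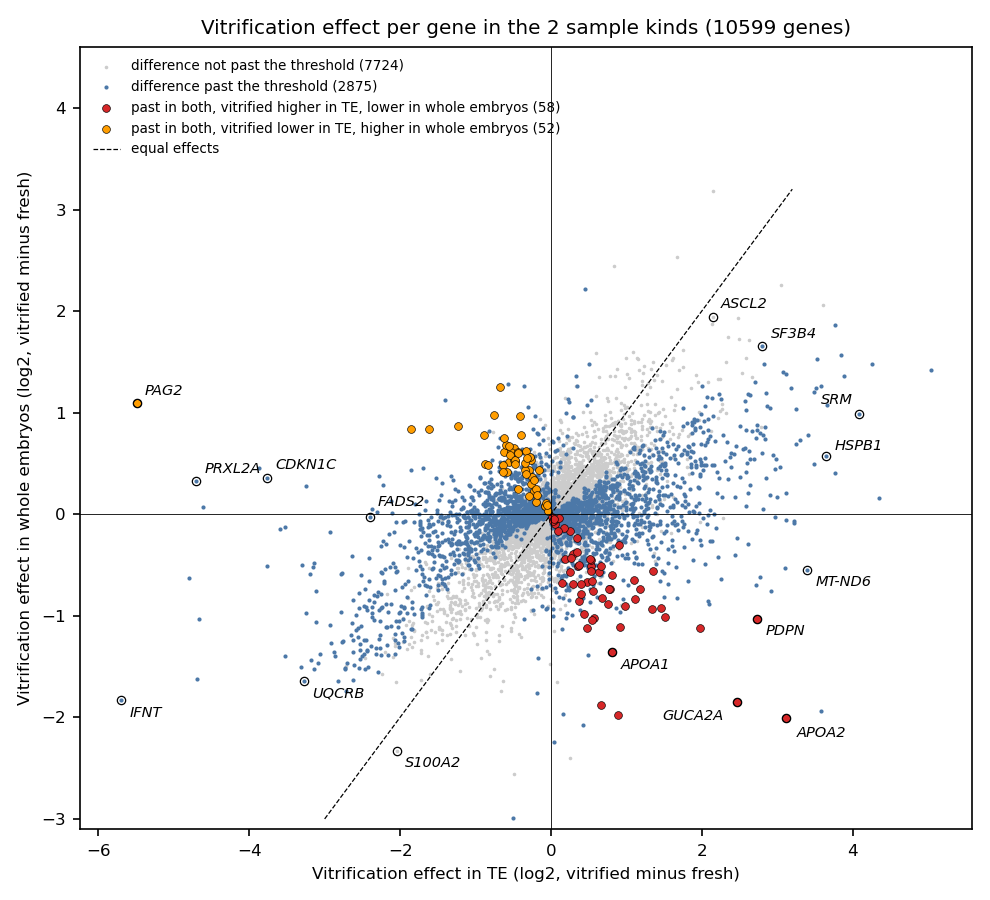
Vitrification effect in TE (x axis) against the effect in whole embryos (y axis), both as vitrified minus fresh mean log2(scaled RPKM + 1), 1 point per tested gene. Blue points passed the test of the difference, red and orange points moved in opposite directions with both effects past the threshold (58 and 52 genes), and genes spread further along the TE axis than along the embryo axis.

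The balance of the calls depends on the scaling. Of the genes whose effects differed, 51.5% had the higher effect in whole embryos under the median-ratio scaling, 12.3% in the values as deposited, 35.9% when scaled by the reads in listed genes and 63.3% after quantile normalization. In the deposited values the median TE effect over all tested genes was 0.18 and when scaled by the reads in listed genes 0.10, against 0.01 here, so the same genes sit against a shifted zero. Of the 1394 genes with a lower effect in whole embryos 1140 were called in that direction under all 3 other scalings, and of the 1481 with a higher value 394 were.

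In 73.3% of the 2875 genes the fresh TE group was the one that stood alone, meaning that the means of the other 3 groups lay closest together once it was set aside; over all tested genes the share was 50.7%. The distance between whole embryos and TE was mostly wide among fresh samples and narrow among vitrified ones. The median absolute gap between the 2 kinds was 0.494 among fresh samples and 0.130 among vitrified samples for the 2875 genes, and 0.144 and 0.083 for all tested genes. The gap was smaller among vitrified samples in 83.0% of the 2875 and in 66.0% of all tested genes. The difference of effects is the same quantity as the change of that gap, so the 2875 genes had to move in it, and only the direction is a description of them.

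Genes that moved in opposite directions in the 2 kinds were few. Both effects passed and had opposite signs in 110 genes, 58 that rose in TE and fell in whole embryos (0.547% of those tested) and 52 that fell in TE and rose in whole embryos (0.491%), while 882 rose in both (8.32%) and 528 fell in both (4.98%). All 110 also passed the test of the difference, which was nearly fixed in advance, because effects of opposite sign add up in it. In 29 of the 58 and 27 of the 52 the vitrified and fresh samples did not overlap in either kind. Over all tested genes the samples did not overlap in TE in 42%, in whole embryos in 30.4%, and in both with opposite directions in 1.13%. A single vitrified embryo carries much of these counts. With either one left out many of the 110 were no longer opposite in both tests, most of all without the second. Some genes outside the 110 then became opposite.

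The genes that rose in TE and fell in whole embryos included APOA2, APOM and APOA1, which are apolipoproteins of the hypoblast and yolk sac list. APOA2, an apolipoprotein of high-density lipoprotein (chromosome 3, 8301476 to 8302729 of UMD3.1), read 2.22, 4.03, 8.56, 9.65 and 4.89 scaled RPKM in the 5 fresh TE samples and 19.6 to 151 (median 42.5) in vitrified TE, against 58 to 105 (median 83.5) in fresh embryos and 13.9 and 26.4 in the vitrified embryos. Every vitrified TE sample was above every fresh one, and both vitrified embryos were below every fresh embryo. Its effect was 3.12 in TE and -2.01 in whole embryos, a difference of -5.13 ± 0.69 (SE; limma adjusted p = 2.97e-05). APOM, another lipoprotein constituent, had 4.05 to 7.65 scaled RPKM (median 5.46) in fresh embryos and 2.54 and 2.55 in the vitrified ones, while fresh TE had 1.72, 1.2, 0.816, 1.63 and 0.971 and vitrified TE 2.62 to 5.79 (median 3.34). The samples separated in the same way as for APOA2, with a TE effect of 0.99 and an embryo effect of -0.90, a difference of -1.89 ± 0.28 (SE; limma adjusted p = 7.26e-05). APOA1, the main protein of high-density lipoprotein, measured 257, 283, 543, 523 and 473 scaled RPKM in fresh TE, 482 to 1034 (median 715) in vitrified TE, 509 to 812 (median 645) in fresh embryos, and 509 and 129 in vitrified embryos. The TE samples overlapped, and the first vitrified embryo lay at the lowest fresh embryo while the second was far under it. APOA1 had effects of 0.81 and -1.36, a difference of -2.17 ± 0.48 (SE; limma adjusted p = 0.00246), and without the second vitrified embryo its difference was -1.18 and no longer past the threshold.

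GUCA2A, PDPN, TIMP1, MT-CO2 and TNNI3 were the other named genes with this pattern. GUCA2A encodes guanylin, a small peptide that activates guanylate cyclase in epithelia, and it read 0, 0.158, 0.753, 0.229 and 0.128 scaled RPKM in the 5 fresh TE samples and 3.07 to 13.9 (median 5.73) in vitrified TE, against 7.48 to 21.6 (median 13) in fresh embryos and 3.34 and 2.13 in the vitrified embryos. Fresh TE was near 0 and the vitrified embryos lay below every fresh embryo. Its effects were 2.47 in TE and -1.85 in whole embryos, a difference of -4.31 ± 0.51 (SE; limma adjusted p = 7.92e-06). PDPN, podoplanin, a mucin-type membrane glycoprotein (chromosome 16, 55407771 to 55442826), had 17.8 to 27.7 scaled RPKM (median 24.2) in fresh embryos and 11.8 and 9.7 in the vitrified ones, while fresh TE had 1.59, 1.91, 1.13, 0.99 and 1.01 and vitrified TE 12.1 to 17.5 (median 14.2). No vitrified sample overlapped a fresh one of its kind, and the vitrified embryos came to lie just below the vitrified TE samples. Its effects were 2.74 and -1.03, a difference of -3.76 ± 0.23 (SE; limma adjusted p = 3.04e-09). TIMP1, an inhibitor of matrix metalloproteinases, measured 8.98, 9.05, 7.16, 8.57 and 9.58 scaled RPKM in fresh TE, 10.4 to 30.8 (median 14.4) in vitrified TE, 13.7 to 26.8 (median 18.7) in fresh embryos, and 8.4 and 8.15 in vitrified embryos. The vitrified TE samples were all above the fresh ones and the vitrified embryos all below, a difference of -2.03 ± 0.37 (SE; limma adjusted p = 0.000598). MT-CO2, a mitochondrially encoded subunit of cytochrome c oxidase, had effects of 1.34 and -0.93, and TNNI3, the cardiac form of troponin I, of 1.51 and -1.01.

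Among the genes that fell in TE and rose in whole embryos, PAG2 had the largest difference of the 2 effects. PAG2 is a pregnancy-associated glycoprotein, an aspartic proteinase-like protein secreted by trophoblast (chromosome 29, 38155711 to 38165208), and it read 81, 75, 133, 132 and 107 scaled RPKM in the 5 fresh TE samples and 0.692 to 2.67 (median 1.46) in vitrified TE, against 0.314 to 1.11 (median 0.852) in fresh embryos and 4.33 and 1.59 in the vitrified embryos. Fresh TE was high, every other sample was low, and among the low samples both vitrified embryos lay above every fresh embryo. Its effects were -5.49 in TE and 1.09 in whole embryos, a difference of 6.59 ± 0.38 (SE; limma adjusted p = 1.27e-09). The embryo effect of PAG2 was 1.61 without the second vitrified embryo and 0.57, not past the threshold, without the first. PAG2 belongs to a family of near-identical genes, so the split of reads among its members is uncertain.

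SSLP1, a small secreted protein of the Ly-6 type, had 0.222 to 1.09 scaled RPKM (median 0.475) in fresh embryos and 1.59 and 1.85 in the vitrified ones, while fresh TE had 6.66, 7.61, 3.89, 3.81 and 4.23 and vitrified TE 0.332 to 1.13 (median 0.519). Both vitrified embryos exceeded all fresh embryos while vitrified TE fell below all fresh TE, with effects of -1.86 and 0.84, a difference of 2.70 ± 0.30 (SE; limma adjusted p = 4.64e-06). SMIM1, a small integral membrane protein, measured 5.17, 5.45, 10.4, 10.6 and 7.74 scaled RPKM in fresh TE, 1.37 to 2.21 (median 1.87) in vitrified TE, 0.476 to 1.66 (median 1.06) in fresh embryos, and 2.26 and 3.16 in vitrified embryos. The pattern was that of SSLP1, with effects of -1.61 and 0.84, a difference of 2.45 ± 0.29 (SE; limma adjusted p = 6.69e-06). CITED2, a co-regulator that binds the histone acetyltransferases CBP and p300, read 28.9, 23.2, 18.8, 17.1 and 41.9 scaled RPKM in the 5 fresh TE samples and 8.16 to 13.4 (median 10.7) in vitrified TE, against 3.55 to 6.72 (median 5.64) in fresh embryos and 10.8 and 10.2 in the vitrified embryos. Vitrified samples of both kinds lay above the fresh embryos and below the fresh TE. Its effects were -1.23 and 0.87, a difference of 2.10 ± 0.32 (SE; limma adjusted p = 0.000109), but in the values as deposited its TE effect was -0.18 and did not pass. CYB5R1, NFIL3, PDXK and ADRM1 completed the named genes of this direction, and in the deposited values the TE effects of these 4 were above 0 (0.10, 0.20, 0.33 and 0.42).

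**Figure D2:**
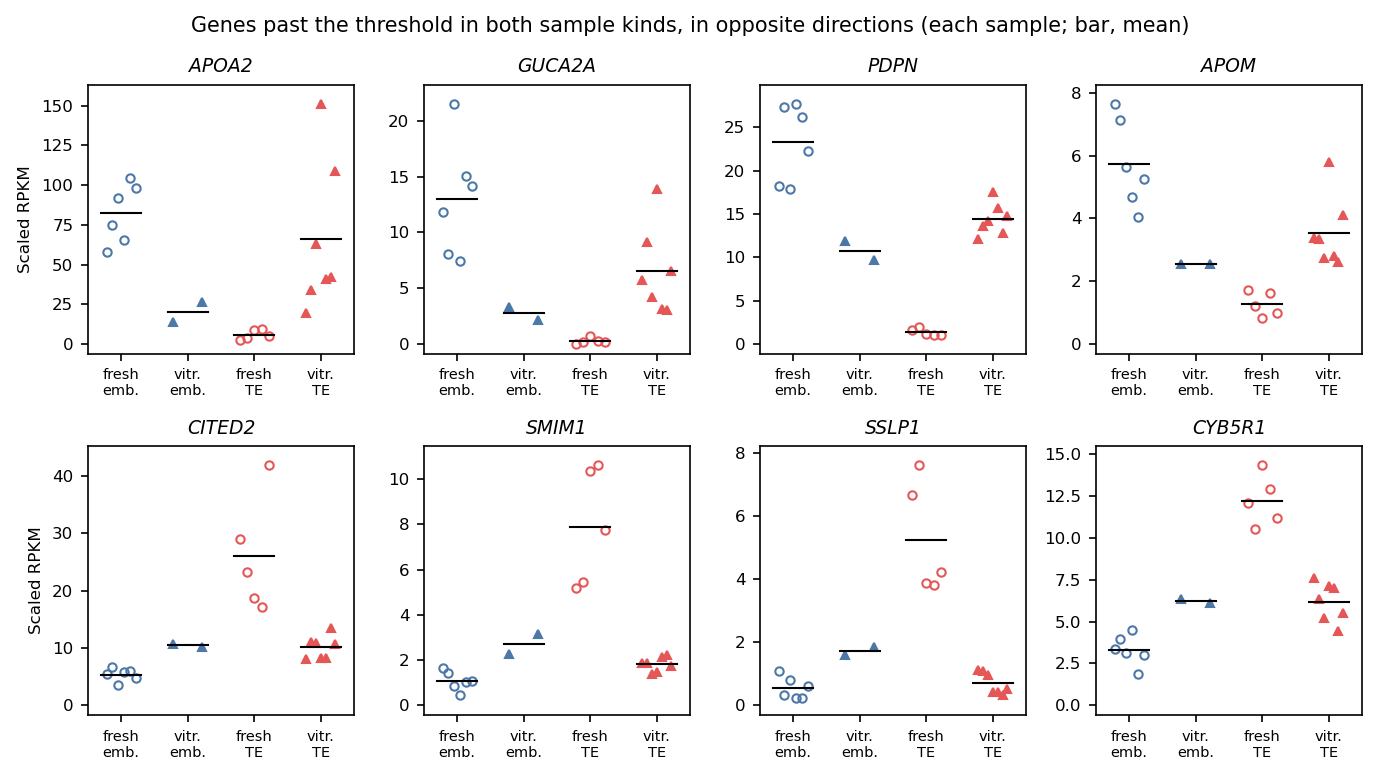
Scaled RPKM of 8 genes with opposite effects in each of the 20 samples (y axis) by group (x axis), with a bar at the group mean; circles are fresh and triangles vitrified samples, blue whole embryos and red TE. In the 4 genes that rose in TE fresh embryos are high and fresh TE low, in the other 4 fresh TE is highest, and vitrified samples of the 2 kinds lie closer together.

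How firmly these directions hold was examined by scaling and by sample. Of the 58 genes that rose in TE and fell in whole embryos 15 kept both calls under all 3 other scalings and none moved to another direction class. Of the 52 with the reverse pattern 3 kept both calls and 23 moved to another class under at least 1 scaling. Those with a symbol that kept their class were APOA2, APOM, AQP3, ATP6V1G3, FKBP7, GJA1, GUCA2A, MT-CO2, NOP10, NOV and PDPN in the first pattern and PAG2, SMIM1 and SSLP1 in the second. FKBP7, GJA1, NOP10, NOV and ATP6V1G3 are named here after their values were seen. For all 16 genes named in the 2 patterns the embryo effect kept its sign whichever vitrified embryo was left out, but in 0 of 16 did it stay past the threshold in both omissions, where 1 sample is left in the group. The difference stayed past it in both omissions in 7 of the 8 genes of the first pattern, APOA1 being the other, and in 8 of 8 of the second.

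Genes that rose in both kinds outnumbered the crossing ones. ASCL2, an imprinted transcription factor of trophoblast progenitors, had 17.8 to 54.3 scaled RPKM (median 31.6) in fresh embryos and 102 and 131 in the vitrified ones, while fresh TE had 35, 28.9, 21, 20.8 and 15 and vitrified TE 76.4 to 150.3 (median 103). All vitrified samples were above all fresh samples of both kinds. Its effects were 2.15 in TE and 1.94 in whole embryos, and their difference of -0.20 ± 0.43 did not pass. TMEM177, a mitochondrial membrane protein that takes part in assembling cytochrome c oxidase, measured 1.11, 1.52, 1.89, 2.2 and 2.87 scaled RPKM in fresh TE, 6.44 to 10.4 (median 9.15) in vitrified TE, 1.56 to 3.57 (median 3.06) in fresh embryos, and 9.43 and 11.4 in vitrified embryos. Vitrified samples were again above the fresh ones without overlap, with effects of 1.74 and 1.62. CLDN3, a tight junction claudin, read 0.458, 2.08, 1.24, 0.941 and 0.421 scaled RPKM in the 5 fresh TE samples and 7.2 to 17.1 (median 12.2) in vitrified TE, against 0.984 to 5.18 (median 2.26) in fresh embryos and 10.6 and 9.26 in the vitrified embryos. Its effects were 2.62 and 1.72. PPP1R15A, a stress-induced partner of the phosphatase that reverses the integrated stress response, had 0.755 to 2.33 scaled RPKM (median 1.31) in fresh embryos and 5.03 and 6.36 in the vitrified ones, while fresh TE had 0.572, 0.835, 0.189, 0.336 and 0.375 and vitrified TE 6.65 to 13.1 (median 8.82). It was higher in all vitrified samples, and its TE effect of 2.82 exceeded the embryo effect of 1.48, a difference of -1.34 ± 0.30 (SE; limma adjusted p = 0.0031).

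YWHAH, SF3B4, GADD45B and RAB34 were the other named genes that rose in both kinds, with embryo effects of 1.94, 1.65, 1.54 and 1.52. Whichever vitrified embryo was left out, ASCL2, PPP1R15A and TMEM177 kept the embryo call and the other 5 of the 8 did not. The effects differed in size in 160 of the 882 genes that rose in both.

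Genes that fell in both kinds included IFNT, UQCRB, RPL30 and COX7A2. IFNT, interferon tau (chromosome 8, 22607643 to 22634001), measured 219, 223, 168, 169.7 and 253 scaled RPKM in fresh TE, 2.48 to 4.73 (median 2.74) in vitrified TE, 5.84 to 19.4 (median 10.3) in fresh embryos, and 2.09 and 2.42 in vitrified embryos. Vitrified samples were below fresh ones in both kinds, and every fresh TE sample was above every fresh embryo. The effect was -5.70 in TE and -1.83 in whole embryos, a difference of 3.87 ± 0.36 (SE; limma adjusted p = 4.88e-07); IFNT has near-identical copies, so its reads may be shared among them. UQCRB, a small subunit of respiratory complex III, read 238, 262, 352, 354 and 452 scaled RPKM in the 5 fresh TE samples and 27.4 to 36.7 (median 33.4) in vitrified TE, against 68.9 to 145 (median 116) in fresh embryos and 41.9 and 28.6 in the vitrified embryos. Its effects were -3.27 and -1.64, a difference of 1.63 ± 0.31 (SE; limma adjusted p = 0.000733). RPL30, a protein of the large ribosomal subunit, had 151 to 215 scaled RPKM (median 194) in fresh embryos and 65.2 and 62.7 in the vitrified ones, while fresh TE had 251, 257, 269, 271 and 281 and vitrified TE 42.8 to 67.5 (median 54.8). Both kinds fell without overlap, by effects of -2.29 and -1.56. The difference of RPL30 was 0.74 ± 0.21. In the deposited values it was -0.04, and it did not pass there or without the first vitrified embryo.

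COX7A2, a nuclear-encoded subunit of cytochrome c oxidase, measured 157, 167, 179, 181 and 250.4 scaled RPKM in fresh TE, 26.4 to 37.4 (median 34.1) in vitrified TE, 67.5 to 119 (median 97.4) in fresh embryos, and 35.2 and 30.8 in vitrified embryos. Every vitrified sample was below every fresh sample of its kind, with effects of -2.46 and -1.52, a difference of 0.94 ± 0.24 (SE; limma adjusted p = 0.00771). In the deposited values that difference was 0.16 and did not pass, nor did it without the first vitrified embryo (0.84). S100A2, a calcium-binding protein of epithelia, read 17.8, 16.9, 52.6, 53 and 54.3 scaled RPKM in the 5 fresh TE samples and 4.25 to 13.4 (median 6.51) in vitrified TE, against 18.2 to 73.7 (median 25.6) in fresh embryos and 5.38 and 5.26 in the vitrified embryos. Its effects of -2.04 and -2.33 were close, with a difference of -0.29 ± 0.63 that did not pass. DBI, an acyl-CoA binding protein, had effects of -2.24 and -1.57. C5H12orf57 had effects of -1.60 and -1.57, and MGC148714 of -2.71 and -1.74. In 7 of these 8 genes, all but S100A2, the embryo call held whichever vitrified embryo was left out. The effects differed in size in 175 of the 528 genes that fell in both, and 137 of the 528 kept both calls under all 3 other scalings, against 620 of the 882 that rose.

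**Figure D3:**
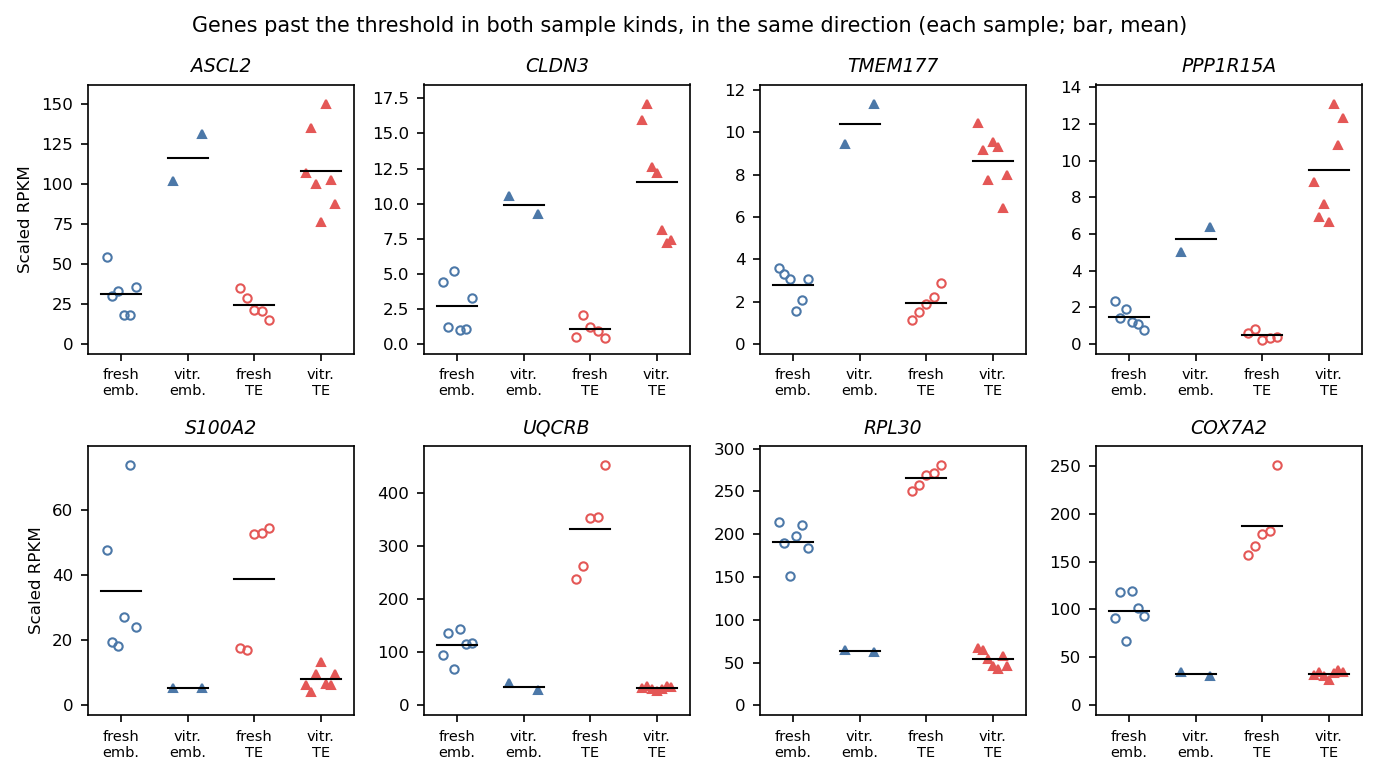
Scaled RPKM of 4 genes that rose and 4 that fell in both kinds, in each of the 20 samples (y axis) by group (x axis), with a bar at the group mean; circles are fresh and triangles vitrified samples, blue whole embryos and red TE. The vitrified samples lie above the fresh ones of their kind in ASCL2, CLDN3, TMEM177 and PPP1R15A and below in S100A2, UQCRB, RPL30 and COX7A2.

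The genes with the smallest p-values for a higher effect in whole embryos were ones that were high in fresh TE alone. MOGAT1, which makes diacylglycerol from monoacylglycerol (chromosome 2, 111602255 to 111631564), had 0.421 to 0.672 scaled RPKM (median 0.59) in fresh embryos and 0.584 and 0.601 in the vitrified ones, while fresh TE had 4.82, 4.48, 5.21, 5.26 and 5.37 and vitrified TE 0.21 to 0.558 (median 0.415). Only fresh TE stood out. The effect was -2.10 in TE and 0.01 in whole embryos, a difference of 2.11 ± 0.11 (SE; limma adjusted p = 5.55e-10). FADS2, a desaturase that starts the synthesis of long polyunsaturated fatty acids (chromosome 29, 41045232 to 41082248), measured 6.68, 6.53, 8.4, 8 and 6.76 scaled RPKM in fresh TE, 0.315 to 0.973 (median 0.583) in vitrified TE, 0.115 to 0.253 (median 0.164) in fresh embryos, and 0.123 and 0.185 in vitrified embryos. Its effects were -2.40 and -0.02, a difference of 2.38 ± 0.16 (SE; limma adjusted p = 5.86e-09). Other members were REEP5, which shapes the endoplasmic reticulum (1.91 ± 0.11), PRXL2A, a peroxiredoxin-like protein (5.03 ± 0.31), DEFB, a defensin (3.45 ± 0.22), ANKRD1 (3.41 ± 0.22), GCNT3 (2.65 ± 0.20) and the interleukin receptor IL11RA (2.80 ± 0.22), the values being the differences ± SE. Of these 8 genes GCNT3, an enzyme that branches mucin glycans, passed the embryo test (-0.48, a fall in both kinds), and the other 7 did not. The embryo call of GCNT3 did not hold in the values as deposited or when scaled by the reads in listed genes. IL11RA, which did not pass, had a similar embryo effect of -0.50.

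At the other end stood genes whose mean was lowest in fresh TE. SRM, spermidine synthase, read 2.15, 3.09, 2.77, 3.3 and 4.09 scaled RPKM in the 5 fresh TE samples and 51.8 to 79.6 (median 67.9) in vitrified TE, against 19.5 to 45.5 (median 29.6) in fresh embryos and 50.6 and 69.7 in the vitrified embryos. Vitrified TE was far above fresh TE, and both vitrified embryos were above the fresh embryos' highest value. The TE effect of SRM was 4.08 and the embryo effect 0.98, a difference of -3.09 ± 0.33 (SE; limma adjusted p = 2.2e-06). FADS3, a relative of FADS2, moved against it: it had 3.34 to 5.38 scaled RPKM (median 4.51) in fresh embryos and 12.2 and 9 in the vitrified ones, while fresh TE had 0.876, 0.635, 0.893, 0.811 and 0.788 and vitrified TE 9.88 to 15.1 (median 11.9). FADS3 rose in both kinds, by 2.87 in TE and 1.06 in whole embryos, a difference of -1.80 ± 0.19 (SE; limma adjusted p = 1.66e-06). G6PC3, a glucose-6-phosphatase, and DYNLL1, a dynein light chain, had differences of -1.87 ± 0.17 and -1.93 ± 0.19. The other genes of this end were PDPN and the mitochondrially encoded MT-ND6, MT-ND4, COX1, MT-CYB and MT-ND2.

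Gene lists put these members in order of role; 967 of their genes were tested, and each count is to be set beside the share of all tested genes. That share was 14% for a higher and 13.2% for a lower effect in whole embryos, 35.2% and 27.4% for genes that rose and fell in TE, 10.6% and 6.99% for genes that rose and fell in whole embryos, and 8.32% and 4.98% for genes that rose and fell in both. Here higher and lower refer to the embryo effect relative to the TE effect, a single value after a gene is the difference of the 2 effects, and no list count is a test of the list. Members named beyond the 2 with the smallest p-value of each list were picked after their values were seen. Among the 15 tested genes of the conceptus secretions, 8 had a higher and 5 a lower effect in whole embryos, in each of the 4 scalings. Higher were IFNT, PAG2, SSLP1, PAG11 (difference 4.69), PINLYP (4.17), PTGS2, the inducible prostaglandin synthase (2.28), PAG12 (1.22) and TKDP4 (1.26). Lower were the protease inhibitors TIMP1, SPINT1 (-1.18) and SPINT2 (-0.71), the lectin LGALS3 (-1.98) and the growth factor IGF2 (-0.27). With vitrification 9 of the 15 fell and 5 rose in TE, and 4 of the 15 fell and 2 rose in whole embryos. Most of these calls in whole embryos did not hold when either vitrified embryo was left out.

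Trophectoderm identity genes split as well: 11 of 23 had a higher and 2 a lower effect in whole embryos. SFN, an epithelial 14-3-3 protein (2.52), DLX5, a homeobox factor (1.92), the keratin KRT18 (1.51) and the AP-2 factors TFAP2A (1.11) and TFAP2C (1.18) were among the 11. HAND1, a factor of trophoblast and mesoderm, was another (1.65), but its difference was 0.73 and not past the threshold without the second vitrified embryo, 2.56 without the first, and not past it in the deposited values. ELF3 (-2.51) and ID2 (-1.90) were the 2. No member fell in whole embryos and 7 rose, whereas in TE 6 rose and 11 fell. Most of the 7 calls in whole embryos did not hold without the second vitrified embryo. In the values as deposited the split of the differences was 5 higher and 3 lower, and in TE 12 rose and 3 fell.

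Hypoblast and yolk sac genes went the other way, with a higher effect in whole embryos in 1 of 23 and a lower one in 13. Besides APOA2, APOA1 and APOM they included APOE (-3.36), the retinol carrier RBP4 (-1.57), the cathepsin CTSV (-2.10), fibronectin FN1 (-1.12), the receptors PDGFRA (-0.58) and LRP2 (-0.48) and the transcription factor GATA4 (-0.14). In TE 18 rose and 3 fell, and in whole embryos 1 rose and 4 fell. Those calls in whole embryos did not hold without the second vitrified embryo. The endocytic adaptor DAB2 (0.67) was the 1 member with a higher effect in whole embryos. Without the first vitrified embryo 10 members were lower and without the second 7. As given above, the markers GATA4, GATA6, SOX17, PDGFRA, LRP2 and AMN were higher in vitrified than in fresh TE without overlap. Their part in the counts was not tested.

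Epiblast genes showed 4 of 17 lower and 0 higher, namely PDPN, ZFP42 (-2.27), KLF4 (-1.72) and KLF5 (-1.27). The core factors POU5F1, NANOG and SOX2 gave no call, and the 2 vitrified embryos were far apart in them: they had 0.234 and 13.5 scaled RPKM of POU5F1 against 0.922 to 4.79 in fresh embryos; the difference of POU5F1 was 0.05 with a standard error of 0.67. Without the first vitrified embryo 6 epiblast genes were higher and 2 lower, and without the second 0 and 6.

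Genes of fatty acid and cholesterol synthesis formed the largest block of metabolic genes with a higher effect in whole embryos, 18 of 37 with 3 lower. Along the sterol pathway these included HMGCS1 (1.23), at the entry of the pathway, then PMVK, MVD (1.40), FDPS (1.15), FDFT1 (1.23), LSS (0.43), CYP51A1 (1.52), EBP (0.78) and DHCR7 (0.70). On the fatty acid side were the desaturases SCD (1.51) and FADS2 and the elongases ELOVL5 (1.01) and ELOVL6 (0.40). In TE 24 of the 37 fell and 5 rose, while in whole embryos 1 fell and 3 rose, and fresh TE stood alone in 28. FDFT1, squalene synthase, was opposite in both tests, with effects of -0.55 and 0.67, but in the deposited values its TE effect was 0.15 and did not pass. The 3 lower members were ELOVL1 (-1.44), INSIG2 (-0.28) and SREBF1 (-0.81), a transcription factor that drives the pathway. In the values as deposited 12 were higher and 5 lower, and the direction in TE turned, with 15 rising and 8 falling.

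All 13 mitochondrially encoded genes had a lower effect in whole embryos, and 12 of them rose in TE. MT-ND6 measured 116, 143, 124, 122 and 149 scaled RPKM in fresh TE, 1060 to 2039 (median 1346) in vitrified TE, 571 to 843 (median 608) in fresh embryos, and 694 and 277 in vitrified embryos. Vitrified TE was the highest group, fresh TE the lowest, and the vitrified embryos lay on either side of the fresh embryos' median, a difference of -3.95 ± 0.34 (SE; limma adjusted p = 1.9e-07). In whole embryos the 13 did not move as one: MT-ATP8, ND5 and MT-ND4L rose (1.36, 1.40 and 1.18), MT-CO2 and MT-ND3 fell (-0.93 and -2.24), and 8 did not pass. These directions depended on which vitrified embryo was kept. The embryo effect of MT-CO2 was -1.41 without the first and -0.46 without the second, and that of MT-ND6 -1.21 and 0.12. The 13 come from 1 small genome that is transcribed as long joint units, so they are not independent, and the count was 12 after quantile normalization and without the second vitrified embryo. ND5 with MT-ND6, MT-ATP8 with MT-ATP6 and MT-ND4L with MT-ND4 are neighbours that overlap, so reads may be shared between them.

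**Figure D4:**
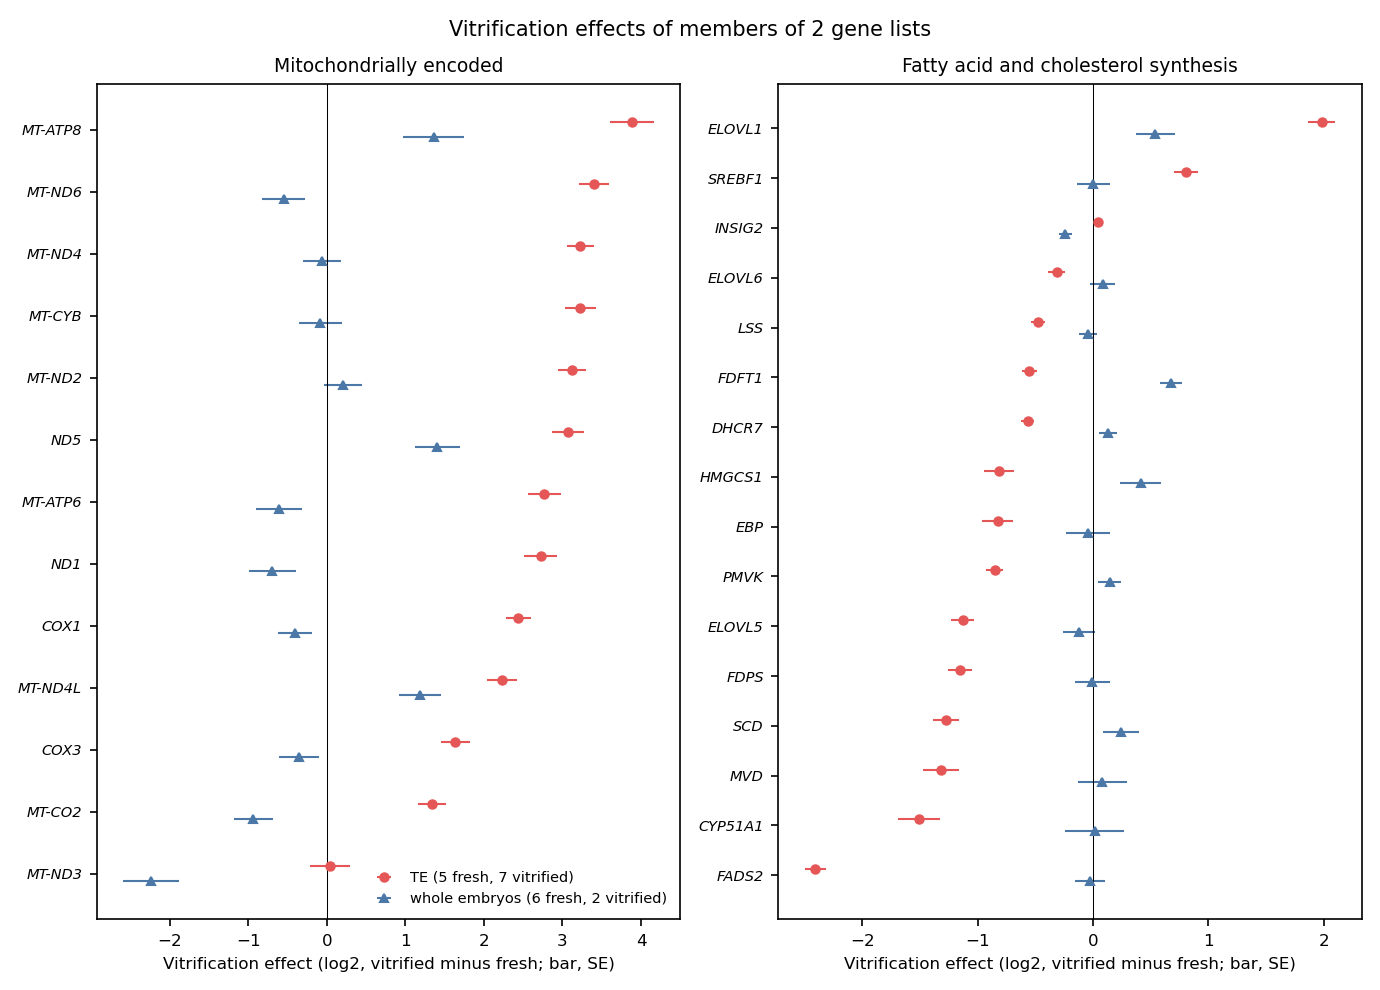
Vitrification effects ± SE (x axis, vitrified minus fresh mean log2(scaled RPKM + 1)) in TE (red) and in whole embryos (blue) for the 13 mitochondrially encoded genes and the 16 genes of fatty acid and cholesterol synthesis named in the text (y axis). In 12 of the 13 the TE effect was past the threshold and above 0, and in the 13 synthesis genes with a higher effect in whole embryos the TE effect lies below 0.

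Among nuclear genes of the respiratory chain 15 of 73 had a higher and 11 a lower effect in whole embryos, which turned to 3 and 38 in the values as deposited. They fell in both kinds in 38 of 73, with 47 falling in TE and 40 in whole embryos. Many of these 40 calls in whole embryos did not hold without the second vitrified embryo. In the deposited values 16 fell and 38 rose in TE, and 30 fell in whole embryos. NDUFA1 (2.13) and ATP5ME (1.75) fell more in TE, and NDUFS8 (-2.52) and NDUFA3 (-2.29) rose in TE without passing in whole embryos. Cytosolic ribosomal protein genes mostly fell under the median-ratio scaling, with 62 of 77 falling in TE, 57 in whole embryos and 53 in both. Their median effects were -1.33 and -0.90. Part of the 57 calls in whole embryos did not hold when either vitrified embryo was left out. In the deposited values 37 fell and 23 rose in TE, and 42 fell in whole embryos. The fall was deeper in TE in RPS12 (1.63) and RPS4X (1.51), and 25 of 77 differed in that direction against 9 in the other. This balance turned with the scaling, to 1 and 30 in the values as deposited, and many ribosomal protein genes have near-identical processed copies, so their reads are uncertain.

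Extracellular matrix and protease genes share members with the hypoblast list, and the effect in whole embryos was higher in 1 of 41 and lower in 15. PLAU, the urokinase plasminogen activator, had an embryo effect of -2.99 and a difference of -2.48. The integrins ITGA5 (-1.86) and ITGB1 (-0.99), the protease CTSD and the matrix protein SPARC (-1.40) were also lower. In TE 25 rose and 6 fell.

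Glycolysis and hypoxia genes had 14 of 40 higher and 3 lower. LDHA (1.55), LDHB (1.24), PGAM1 (1.09) and GPI (1.05, not past the threshold in the deposited values) were higher, and GAPDH (-1.81) and PKM (-1.56) were lower, so enzymes of 1 pathway split. In the deposited values the counts were 6 and 6, which also held for genes of prostaglandin and steroid synthesis. Lipid uptake and storage genes had 11 of 31 higher and 3 lower, among them MOGAT1, SLC27A6 (0.90) and the lipoprotein receptor SCARB1 (0.87). Among genes of prostaglandin and steroid synthesis 9 of 23 were higher and 4 lower, with AKR1B1 (2.28), HSD17B1 (1.90) and CYP11A1 (1.37) next to PTGS2.

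Of the cell cycle genes 18 of 49 rose in both kinds, and 5 differed upward and 10 downward. CDK4 rose by 2.67 in TE and 0.82 in whole embryos, and the replication helicase genes MCM2 (-1.14) and MCM5 (-0.62) rose in both with larger TE effects. The imprinted cell cycle inhibitor CDKN1C stood apart, with effects of -3.77 in TE and 0.36 in whole embryos, a difference of 4.13 ± 0.45 (SE; limma adjusted p = 3.48e-06). Genes of the heat shock and endoplasmic reticulum stress list had 13 of 43 higher and 6 lower, which became 1 and 14 in the deposited values. HSPB1, a small heat shock protein, had effects of 3.65 and 0.57, and DNAJB11, an endoplasmic reticulum co-chaperone, of -1.72 and -0.35. Of the immediate early genes 0 of 22 were higher and 4 lower, JUNB (-2.63) and MYC (-1.33) among them, while FOS and IER2 rose in both kinds with no difference past the threshold. Many calls of a rise in whole embryos in these lists did not hold without the second vitrified embryo. The embryo effect of CDK4 was 1.03 without the first and 0.61 without the second. That of JUNB was 1.61 and -0.04, and that of MYC 0.64 and 0.91.

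**Figure D5:**
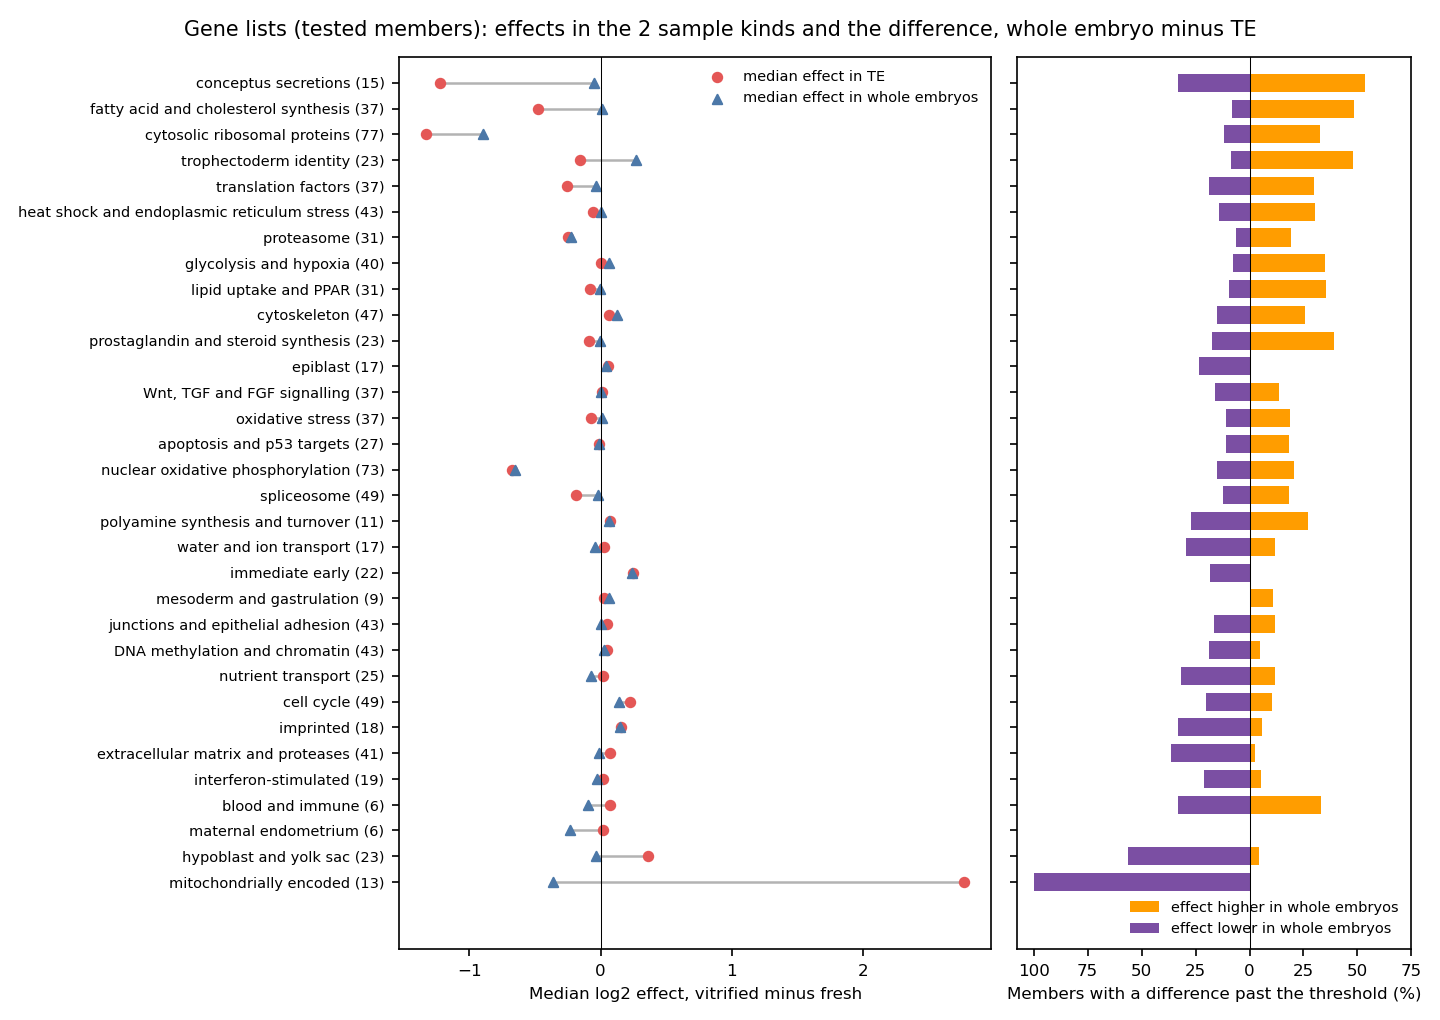
For each of the gene lists (y axis), the left panel gives the median vitrification effect over its tested members in TE (red dots) and in whole embryos (blue triangles) in log2 units, and the right panel the percentage of members whose effects differed, orange for a higher and purple for a lower effect in whole embryos. Mitochondrially encoded genes reach 13 of 13 lower, and fatty acid and cholesterol synthesis 18 of 37 higher.

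The remaining lists held smaller shares or both directions. Cytoskeleton genes had 12 of 47 higher and 7 lower, with TUBA1A (1.85) and ACTB (0.98, not past the threshold in the deposited values) higher and PFN1 (-2.27) lower. Nutrient transporters had 3 of 25 higher and 8 lower, with FOLR1, a folate receptor (-3.63), and SLC38A2, an amino acid transporter (-1.91), as the named members. Water and ion transport genes had 2 of 17 higher and 5 lower. The water and glycerol channel AQP3 was opposite in both tests, with effects of 1.46 and -0.93. Its embryo effect was -0.926 without the first vitrified embryo and -0.925 without the second, but its embryo call rested on both samples together. Imprinted genes had 1 of 18 higher, CDKN1C, and 6 lower. Interferon-stimulated genes had 1 of 19 higher and 4 lower, IFITM3 (-3.68) and PLAC8 (-1.19) being the named members. DNA methylation and chromatin genes had 2 of 43 higher and 8 lower, and 10 of them rose in both kinds. Many of those calls in whole embryos did not hold without the second vitrified embryo. In the other 11 lists the counts were, higher then lower, 5 and 6 of 37 for Wnt, TGF and FGF signalling, 11 and 7 of 37 for translation factors, 9 and 6 of 49 for the spliceosome, 6 and 2 of 31 for the proteasome, 5 and 7 of 43 for junctions, 7 and 4 of 37 for oxidative stress, 5 and 3 of 27 for apoptosis, 3 and 3 of 11 for polyamines, 2 and 2 of 6 for blood and immune markers, 1 and 0 of 9 for mesoderm and 0 and 0 of 6 for endometrium. In the deposited values the balance turned to 3 and 15 for the cytoskeleton, 2 and 16 for translation factors, 1 and 24 for the spliceosome, 1 and 11 for the proteasome, 1 and 7 for oxidative stress, 0 and 6 for apoptosis and 0 and 1 for mesoderm. After quantile normalization it turned to 4 and 2 for interferon-stimulated genes and 7 and 5 for Wnt, TGF and FGF signalling.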

How the data were processed

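The deposited table gives 1 value per gene and sample for day 14 cattle conceptuses. The authors' deposited values were taken to be RPKM, because subtracting 0.01 and multiplying by gene span (introns included) and library total returned whole reads for 94.4% to 95.8% of values (within 0.1 read); the files do not name the unit. The UMD3.1 build and the software FastQC, STAR 2.5.3a and Partek are listed without roles, per the submitters' processing notes; strand handling is not given in the sources used here. RPKM over the whole span understates genes with long introns, so levels of different genes are not compared.

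Total reads were 6.01 M to 14.5 M per sample, of which 2.03 M to 8.73 M fell in listed genes, and the fresh TE samples were shallowest in those. Values less 0.01 were divided by median-ratio factors from 8611 genes (0.527 to 0.602 in fresh TE, 1.09 to 1.52 elsewhere). Genes needed at least 10 recovered reads in at least 2 samples, which left out 4943. limma 3.58.1 in R 4.3.3 (trend and robust) was fitted to log2(scaled RPKM + 1) with the 4 group means, p-values were adjusted by Benjamini-Hochberg over all 10599 genes, and the procedure was tested on simulated data. A fold change on this scale is smaller than the ratio for low genes.

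Named genes had a symbol and at least 5 scaled RPKM in the highest group: the 10 smallest p-values of each sign of the difference, up to 8 per direction class with the largest smaller effect, and up to 2 per list at any level. Of 1231 list symbols 1100 were found and 967 tested. The members and lists were chosen with earlier results of these data known. Alternatives were other scalings, pseudocounts and filters, sample weights, a replicate block, averaging of near-identical samples and omission of each sample. Some genes that the naming rule picks are not reported here.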

Additional observations from a re-analysis of the deposited data

Results flagged for a closer look

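The vitrification effect differed between whole embryos and TE in 2875 genes by limma's test of the difference, as the report describes. For 50 named genes and 3 measures of the samples (the listed-gene, mitochondrial and small RNA shares), 159 groups of 4 or more samples were screened for a single sample far from the rest, and 6 (3.77%) held one, where chance gives about 1 in 20. Fresh TE sample 5 was such a sample in 3 genes: it was lowest in GCNT3 at 14.0 scaled RPKM (the other 4 at 19.6 to 20.8), highest in COX7A2 at 250.4 (157 to 181) and highest in MT-CO2 at 2389 (1502 to 1754). In these genes the other 4 fresh TE samples include the near-identical pairs. Among vitrified TE samples, sample 3 was lowest in DEFB at 0.286 (the other 6 at 0.544 to 0.732), sample 7 highest in ANKRD1 at 0.568 (0.0267 to 0.107) and sample 5 highest in IFNT at 4.73 (2.48 to 3.15).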

How the results depend on the processing

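The counts depend on the scaling and on the vitrified embryos. In the values as deposited 422 genes had a higher and 3005 a lower effect in whole embryos, 7311 rose and 706 fell in TE, 2852 rose and 418 fell in whole embryos, and the direction classes held 2584 (rose in both), 170 (fell in both), 99 (rose in TE, fell in whole embryos) and 26 genes (the reverse). Scaled by the reads in listed genes 977 were higher, 1665 fell in TE, 2226 rose and 457 fell in whole embryos, 1780 rose in both and 282 fell in both. With the near-identical fresh TE samples averaged 37 genes rose in TE and fell in whole embryos, and with only the 2 groups compared 416 fell in whole embryos. The other counts under these settings stayed within 1.5 times. Of the 2875 genes, 1752 were called again in the deposited values, 2331 by listed-gene reads, 2599 after quantile normalization and 2395 with the averaged samples, each with its sign.

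Leaving out each sample in turn gave 985 to 1609 genes with a higher and 830 to 1636 with a lower effect, 3539 to 3782 that rose and 2806 to 2953 that fell in TE, and 267 to 1237 that rose and 188 to 827 that fell in whole embryos. The classes ranged over 227 to 975 (rose in both), 142 to 589 (fell in both), 10 to 91 (rose in TE, fell in whole embryos) and 8 to 75 (the reverse). The share with fresh TE alone was 64.7% to 75.2%. The lowest values of the embryo counts and of the opposite classes came without the second vitrified embryo; the group then has 1 sample, assumed to vary like the others.

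Whether replicate numbers pair the samples could not be decided. Of 22 same-numbered pairs 7 correlated over 0.1 (-0.23 to 0.37), and a differently numbered pair, fresh embryo 3 with vitrified TE 1, reached 0.41. The 2 vitrified embryos mirror each other in this measure (0.34 and -0.34 with vitrified TE 1), so their pairs cannot both be positive with the same sample. With the number as a block 1167 genes were higher and 1025 lower, 670 rose and 430 fell in whole embryos, and the classes held 559, 326, 26 and 21 genes.

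For the difference of effects the named genes kept their sign and side of the threshold in 3055 of 3129 values. In 49 values the call was lost and in 24 the sign turned. Most of these genes were picked because they passed this test, so a high share was built in. The embryo effects are not part of this tally. The difference turned sign in GADD45B (0.270 and 0.0570 with pseudocounts of 0.1 and 0.5, -0.23 to 0.0865 with 1 sample left out), RAB34 (-0.40 to 0.23 with 1 sample left out), S100A2 (0.15 with the replicate block), DBI (-0.12 as deposited), RPL30 (-0.0419 as deposited) and C5H12orf57 (-0.71 as deposited, -0.18 by listed-gene reads, -0.0501 with sample weights, -0.11 to 0.16 with 1 sample left out). The cause was not tested. Of these 6 genes RPL30 had passed the test of the difference. The fresh TE samples had 6497 to 7207 genes with at least 10 reads and the other samples 8003 to 9803.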
